A study of Mus musculus with 32 samples.

Results

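The comparison set mammary glands of lactating mice on a diet with 40% dietary fat against glands of mice on 8% dietary fat, with 3 arrays per diet, 6 of the 32 arrays of the series. Membership followed the array titles, which name tissue, diet and replicate. All 6 glands came from wild-type FVB dams at lactation day 10. Per the design text, these dams ate chow until lactation day 5 and then received 40% or 8% of their energy from soy oil for 5 days, 3 dams per diet. A further 3 mammary arrays, titled 16% dietary fat, shared the fit and its estimate of the spread; how that diet was fed is not stated. No source used here says what replaced fat energy in the 8% diet, so a difference in fat and a difference in another nutrient cannot be told apart. The descriptions of all 9 mammary diet arrays read 40% fat and conflict with the titles of 6 of them, so every value below rests on the titles. Ages, litter sizes and food intake are not stated either.

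The lactating mammary gland makes milk fat from fatty acids taken up from blood and from fatty acids built in its own epithelium out of glucose. In that second route citrate leaves the mitochondrion through the carrier Slc25a1 and is cleaved by Acly to acetyl-CoA, which Fasn turns into saturated fatty acids with reducing power from Me1 and the pentose phosphate pathway. The desaturase Scd1 then puts a double bond into saturated chains, and elongases such as Elovl5 and Elovl6 lengthen chains. Srebf1 encodes SREBP-1, a transcription factor whose known targets include many of these genes, and polyunsaturated fatty acids, in which soy oil is rich, are known from liver to lower its activity.

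Because Slc25a1, Fasn and most of their pathway stood lower on 40% fat without overlap, their start regions are shown beside that of Hmgcs1, a cholesterol synthesis gene that did not. Each is the RefSeq window on build GRCm38.p6 that covers 250 bases before and 50 after the annotated start, 300 bases in all, written 5′ to 3′ on the strand of the gene. Capitals mark matches to 4 short motifs searched on both strands: the sterol regulatory element TCACCCCAC, its core CACCCCA, which lies inside the first, the E-box CACGTG and the CCAAT box.
Slc25a1, minus strand, chr16:17928170-17928469: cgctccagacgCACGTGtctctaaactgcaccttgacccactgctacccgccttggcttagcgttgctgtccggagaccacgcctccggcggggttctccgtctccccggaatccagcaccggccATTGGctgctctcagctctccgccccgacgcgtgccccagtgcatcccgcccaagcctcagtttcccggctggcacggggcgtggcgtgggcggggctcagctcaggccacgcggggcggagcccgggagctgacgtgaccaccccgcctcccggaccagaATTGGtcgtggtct
Fasn, minus strand, chr11:120824498-120824797: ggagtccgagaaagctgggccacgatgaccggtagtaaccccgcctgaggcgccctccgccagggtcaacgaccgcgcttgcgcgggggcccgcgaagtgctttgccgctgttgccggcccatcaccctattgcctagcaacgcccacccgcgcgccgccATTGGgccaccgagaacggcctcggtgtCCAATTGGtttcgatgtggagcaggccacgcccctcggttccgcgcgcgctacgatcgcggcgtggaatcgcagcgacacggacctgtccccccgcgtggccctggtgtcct
Hmgcs1, plus strand, chr13:119690101-119690400: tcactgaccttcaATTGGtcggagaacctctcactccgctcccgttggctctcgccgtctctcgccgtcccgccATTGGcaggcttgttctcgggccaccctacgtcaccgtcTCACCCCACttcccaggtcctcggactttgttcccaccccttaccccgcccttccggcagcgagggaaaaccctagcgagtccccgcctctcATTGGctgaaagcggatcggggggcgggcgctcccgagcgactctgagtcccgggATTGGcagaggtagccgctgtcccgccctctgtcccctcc
The Slc25a1 window holds an E-box at position -239 from the annotated start and CCAAT boxes in the reverse orientation. Fasn holds 3 CCAAT matches, of which a forward and a reverse copy share letters. Among the tested lipid genes with a window, with a single window read for each, Hmgcs1 alone held the full sterol regulatory element, at position -137.

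Array 3 on 40% fat stood somewhat apart. Across probe sets its log2 values correlated at 0.976 to 0.981 with the other 2 arrays of its diet, which correlated at 0.991 with each other, while arrays on 8% fat correlated at 0.984 to 0.986 among themselves. The median intensity per array was 17.9 to 19.8 on 40% fat and 18.2 to 18.5 on 8% fat. With 3 arrays per diet, their number sets the precision, and p-values measure the spread between these arrays.

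**Figure D1:**
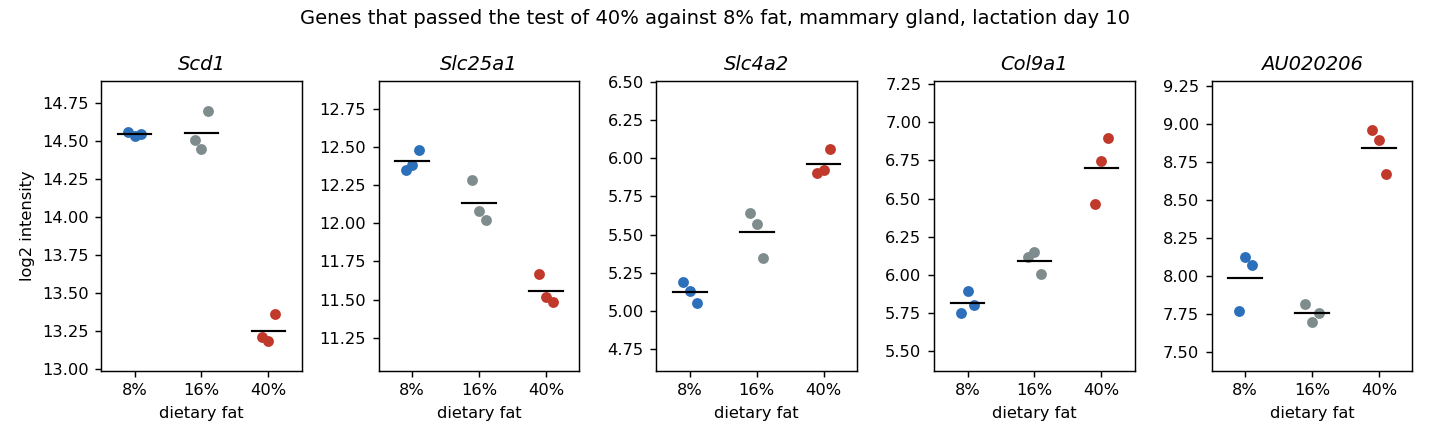
Log2 intensity of each array for the 5 genes called between 40% and 8% fat, with the 3 diets ordered by fat share along the horizontal axis. Points are arrays and bars are group means. For every gene the 3 arrays on 40% fat lie on one side of the 3 arrays on 8% fat, below them for Scd1 and Slc25a1 and above them for Slc4a2, Col9a1 and AU020206.

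Scd1 RNA fell on 40% fat. Its brightest probe set, the set of oligonucleotides that reports one transcript, read 13.21, 13.19 and 13.37 on the 3 arrays of 40% fat, against 14.56, 14.53 and 14.54 on 8% fat, as log2 of the deposited intensity. The 3 arrays on 40% fat lay well below all 3 on 8% fat, and the spread within either diet was small beside the gap. The log2 difference was -1.29 (95% interval -1.51 to -1.07), a 2.44-fold lower level, with an adjusted p of 0.00118 in the limma fit over all tested probe sets with Benjamini-Hochberg adjustment. On 16% fat Scd1 averaged 14.55 ± 0.13 (SD, n = 3) and lay within 0.003 of the 8% mean. Without array 3 on 40% fat the difference was -1.34 (adjusted p = 0.00369). In whole tissue, fewer cells of a type and less RNA per cell cannot be told apart, for this and every gene below.

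Other probe sets of Scd1 did not all move together. A second one averaged 13.04 ± 0.10 on 40% fat and 13.86 ± 0.05 on 8% fat (SD, n = 3 each), and fell by 0.82 on the log2 scale (limma, Benjamini-Hochberg adjusted p = 0.0178). The third and dimmest averaged 9.38 ± 0.29 on 40% fat and 9.24 ± 0.28 on 8% fat, overlapped between diets and did not pass (adjusted p = 0.919). With the log2 values of all 3 averaged, the difference was -0.65 and still passed (adjusted p = 0.0470).

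Slc25a1, the citrate carrier of the mitochondrial inner membrane, also fell on 40% fat. It read 11.67, 11.52 and 11.48 on 40% fat, against 12.35, 12.38 and 12.48 on 8% fat. No array of either diet came near the other group. The log2 difference was -0.85 (95% interval -1.08 to -0.62), a 1.80-fold lower level (adjusted p = 0.0231 in limma). Glands on 16% fat lay between, at 12.13 ± 0.14 (SD, n = 3). Its other probe set had a log2 difference of -1.19 in the same direction and missed the threshold (adjusted p = 0.0596).

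Among the genes that rose, Slc4a2 encodes an anion exchanger that swaps chloride for bicarbonate. It read 5.90, 5.92 and 6.06 on 40% fat, against 5.19, 5.13 and 5.05 on 8% fat. The diets did not overlap and the difference was 0.84 (95% interval 0.60 to 1.07, limma adjusted p = 0.0231). Col9a1, a chain of collagen type IX best known from cartilage, read 6.46, 6.75 and 6.89 on 40% fat, against 5.75, 5.89 and 5.80 on 8% fat. Its arrays did not overlap either, and the difference was 0.89 (95% interval 0.62 to 1.15, limma adjusted p = 0.0337). AU020206, an expressed sequence listed under its clone name, read 8.96, 8.90 and 8.67 on 40% fat, against 7.77, 8.12 and 8.07 on 8% fat. This was a difference of 0.85 (95% interval 0.58 to 1.13, limma adjusted p = 0.0456), again with no overlap. On 16% fat Slc4a2 averaged 5.52 ± 0.15 and Col9a1 6.09 ± 0.08, both between the other diets, while AU020206 averaged 7.76 ± 0.06, close to the 8% group (SD, n = 3 each).

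These 5 genes account for all the calls, 6 of 6483 tested probe sets or 0.0925%, of which 3 were higher (0.0463%) and 3 lower (0.0463%) on 40% fat. At an unadjusted p under 0.05 there were 538 (8.3%). With the 6 compared arrays alone, or with the replicate number as a block, Scd1 alone was called. Leaving out 1 of the 9 arrays gave between 1 and 4 calls, with Scd1 called each time. Slc25a1 was then still called without array 1 on 40% fat and without array 1 or 3 on 16% fat, Slc4a2 without array 1 or 3 on 16% fat, Col9a1 without array 1 on 40% fat, and AU020206 in no case. Without array 3 on 40% fat Slc25a1 had a difference of -0.81 (adjusted p = 0.0725).

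Because few genes pass, groups of genes are described by how many members had all 3 arrays of 40% fat above or below all 3 of 8% fat. Over all tested probe sets 463 (7.14%) were higher and 388 (5.98%) lower without overlap, the median log2 difference was 0.006, and the median 95% interval reached 0.292 to either side of the estimate. A tested probe set had a mean in at least 1 diet group at or above 4.22 in log2, the median of all values.

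Fatty acid synthesis stood lower on 40% fat in every tested gene of its list. Of 12 genes listed, 8 had a probe set of a single gene and 7 were tested. All 7 were lower without overlap and none higher, beside 5.98% and 7.14% of all tested probe sets. Their median difference was -0.40, within a range of -0.85 to -0.21, and Slc25a1 alone passed the test. The summed intensity of the list was 32560 to 33670 on 40% fat and 43090 to 44490 on 8% fat. Leaving out 1 array cannot make separated groups overlap, so the count of 7 could not fall at that setting. The share of all probe sets lower without overlap was 9.25% to 13.6% without 1 of the 6 compared arrays.

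Within that list, Fasn, the multi-domain synthase that builds palmitate, read 13.09, 13.10 and 13.19 on 40% fat, against 13.50, 13.46 and 13.63 on 8% fat. The groups were apart, but the difference of -0.40 (95% interval -0.61 to -0.20) did not pass (limma adjusted p = 0.190). Me1, the cytosolic malic enzyme that supplies NADPH, read 11.05, 11.06 and 11.14 on 40% fat, against 11.73, 11.84 and 11.63 on 8% fat. Its difference of -0.65 had an adjusted p of 0.0796 in limma. Acly, the citrate cleaving enzyme, had the narrowest gap, with 13.37, 13.40 and 13.31 on 40% fat, against 13.60, 13.55 and 13.56 on 8% fat. That difference of -0.21 did not pass (limma adjusted p = 0.551).

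Thrsp, also called Spot 14, is a small protein that goes with lipogenic tissues. It averaged 12.77 ± 0.10 on 40% fat and 13.15 ± 0.09 on 8% fat, a difference of -0.38 (SD, n = 3 each; limma adjusted p = 0.229). Mid1ip1, its relative that promotes the polymerisation of acetyl-CoA carboxylase, averaged 5.43 ± 0.20 on 40% fat and 5.99 ± 0.30 on 8% fat, and its other probe set had a difference of -0.92 in the same direction; neither passed (limma adjusted p = 0.344 and 0.190). Acss1, the mitochondrial acetyl-CoA synthetase, averaged 10.58 ± 0.09 on 40% fat and 10.94 ± 0.03 on 8% fat. It too missed the threshold (limma adjusted p = 0.488). Thrsp and Acss1 had a mean on 16% fat, 13.31 and 11.22, above that on 8% fat. Acaca, the carboxylase that commits acetyl-CoA to fatty acid synthesis, is covered by no single-gene probe set.

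**Figure D2:**
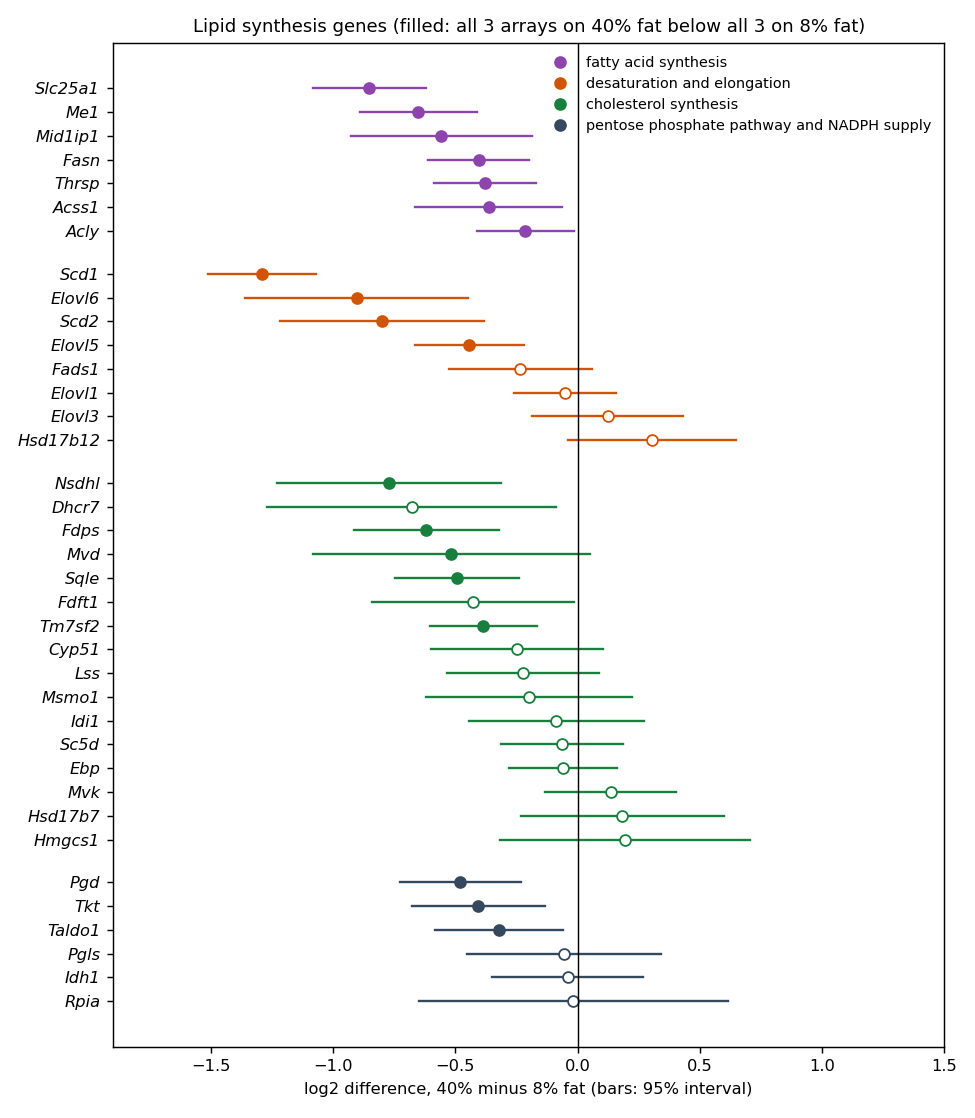
Log2 difference, 40% minus 8% fat, with its 95% interval, for the tested genes of the lipid and NADPH lists. Filled points are genes whose 3 arrays on 40% fat all lie below the 3 on 8% fat, colours mark the list, and a vertical line marks 0. All 7 tested fatty acid synthesis genes and all 6 tested pentose phosphate genes lie left of 0, while the cholesterol synthesis genes spread over both sides.

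The desaturation and elongation list had 8 tested genes of 15 listed. Of these, 4 were lower and none higher without overlap, beside 5.98% and 7.14% of all tested probe sets. The median difference of the list was -0.34, within -1.29 to 0.30. The summed intensity was 23510 to 25330 on 40% fat and 42330 to 43260 on 8% fat, a sum in which the bright Scd1 probe set weighs most. Scd2, a second stearoyl-CoA desaturase, read 10.45, 10.81 and 11.09 on 40% fat, against 11.88, 11.40 and 11.46 on 8% fat. Its arrays did not overlap, and the difference of -0.80 missed the threshold (limma adjusted p = 0.201), as did -0.97 at its other probe set (adjusted p = 0.134). Elovl6, which lengthens 16-carbon chains, read 8.25, 8.09 and 7.61 on 40% fat, against 8.98, 9.20 and 8.48 on 8% fat. The difference of -0.90 was uncertain (95% interval -1.36 to -0.45, limma adjusted p = 0.190). Elovl5, an elongase of polyunsaturated chains, averaged 12.74 ± 0.13 on 40% fat and 13.18 ± 0.10 on 8% fat, also without overlap (SD, n = 3 each).

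The list was not uniform. Fads1, the delta-5 desaturase that makes long polyunsaturated fatty acids, averaged 12.02 ± 0.20 on 40% fat and 12.25 ± 0.17 on 8% fat, with overlapping arrays. Hsd17b12, the ketoacyl-CoA reductase of the elongation cycle, averaged 10.13 ± 0.01 on 40% fat and 9.83 ± 0.31 on 8% fat, a difference of 0.30 in the other direction that did not pass (limma adjusted p = 0.650). Fads2 is not covered.

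The cholesterol synthesis list had 16 tested genes of 20 listed. Of these, 5 were lower without overlap and none higher, beside 5.98% and 7.14% of all tested probe sets. Of the 16 genes, 13 had a lower and 3 a higher mean on 40% fat, with a median of -0.24. Without array 3 on 40% fat, which cannot lower the count, 9 were lower without overlap, beside 13.6% of all probe sets. Fdps, which makes farnesyl pyrophosphate, read 9.17, 9.44 and 9.60 on 40% fat, against 10.21, 10.00 and 9.85 on 8% fat. Its arrays were apart, and the difference was -0.62 (limma adjusted p = 0.190). Sqle, the squalene epoxidase, averaged 8.26 ± 0.16 on 40% fat and 8.75 ± 0.12 on 8% fat, and Mvd, the mevalonate decarboxylase, 5.96 ± 0.05 on 40% fat and 6.48 ± 0.41 on 8% fat (SD, n = 3 each). Tm7sf2, a sterol reductase, had a difference of -0.39. None of the 16 passed.

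At the top of that pathway Hmgcs1, the synthase whose start region is printed above, read 6.73, 6.93 and 7.28 on 40% fat, against 7.14, 6.81 and 6.42 on 8% fat. The groups overlapped, and the difference of 0.19 did not pass (limma adjusted p = 0.917). Nsdhl, a sterol dehydrogenase, had a difference of -0.77 at its brightest probe set and -0.16 with overlap at another, so its probe sets disagreed in size.

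The sterol uptake and SREBP control list had 7 tested genes of 15 listed, with a median difference of 0.02. Srebf1 alone was lower without overlap and none was higher, beside 5.98% and 7.14% of all tested probe sets. Srebf1 read 9.92, 10.15 and 9.57 on 40% fat, against 10.37, 10.61 and 10.84 on 8% fat. The arrays did not overlap, and the difference of -0.72 (95% interval -1.19 to -0.26) missed the threshold (limma adjusted p = 0.322). On 16% fat Srebf1 averaged 9.95 ± 0.36 (SD, n = 3), close to the 40% group and unlike Scd1. Insig1, which holds the SREBP complex in the endoplasmic reticulum, averaged 3.88 on 40% fat and 3.83 on 8% fat, under the filter line, and was not tested. The lipid transcription regulators had 8 tested genes, none without overlap, with differences of -0.22 to 0.11.

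The motifs were counted in the start regions of the lipid genes. The 4 lists were fatty acid synthesis, desaturation and elongation, cholesterol synthesis, and sterol uptake and SREBP control. Of their 38 tested genes 28 had a RefSeq window, while Scd1, Scd2, Fdps and Sqle had none. Each gene was read in a single window, the nearest to its outer 5′ end. Srebf1 and Dhcr7 had 3 windows each, and Me1 and Elovl1 had 2, so their other starts were not counted. Among 13 windows of genes lower without overlap, 0 held the sterol regulatory element, 1 its core (7.69%), 2 an E-box (15.4%) and 9 a CCAAT box (69.2%). Among 15 windows of the other tested genes, 1 held the sterol regulatory element (6.67%), 1 its core, 3 an E-box (20%) and 12 a CCAAT box (80%). Over all 27025 windows the shares were 0.529% for the element, 7.49% for its core, 7.24% for the E-box and 38% for the CCAAT box. A match is a run of letters and not a shown binding site.

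NADPH supply beyond Me1 was read from the pentose phosphate list. All 6 tested genes had a lower mean on 40% fat, with a median of -0.19 and none called. Of these, 3 were lower and none higher without overlap, beside 5.98% and 7.14% of all tested probe sets. Pgd, the phosphogluconate dehydrogenase, read 8.66, 8.76 and 8.69 on 40% fat, against 9.37, 9.18 and 9.00 on 8% fat. Its difference was -0.48 (limma adjusted p = 0.190), with the arrays apart. Tkt, the transketolase, averaged 11.10 ± 0.15 on 40% fat and 11.50 ± 0.16 on 8% fat, and Taldo1, the transaldolase, 10.02 ± 0.22 on 40% fat and 10.34 ± 0.06 on 8% fat (SD, n = 3 each). With the ribosomal protein genes set equal between arrays, 1 of the 6 was lower without overlap in place of 3, beside 2.81% of all probe sets. Pgd, and among the genes below Cs, Pcx, Slc27a3, Acsl5, Xdh, Col1a1, Col6a3, Pdia6, Ddit4, Mt2 and Dbp, were picked to be named after their values were seen.

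Neighbouring carbon routes are given by count, beside 7.14% higher and 5.98% lower without overlap over all tested probe sets. In glycolysis 1 of 13 tested genes was lower without overlap and none higher, with a median of -0.15. In pyruvate and citrate metabolism 4 of 19 were lower and 1 higher, with a median of -0.10. Among the lower was Cs, the citrate synthase that makes the substrate of Slc25a1, at 10.53 ± 0.17 on 40% fat and 10.99 ± 0.16 on 8% fat. Pcx, the pyruvate carboxylase that refills the cycle, averaged 9.18 ± 0.10 on 40% fat and 9.55 ± 0.13 on 8% fat (SD, n = 3 each; limma adjusted p = 0.270 for Cs and 0.494 for Pcx).

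**Figure D3:**
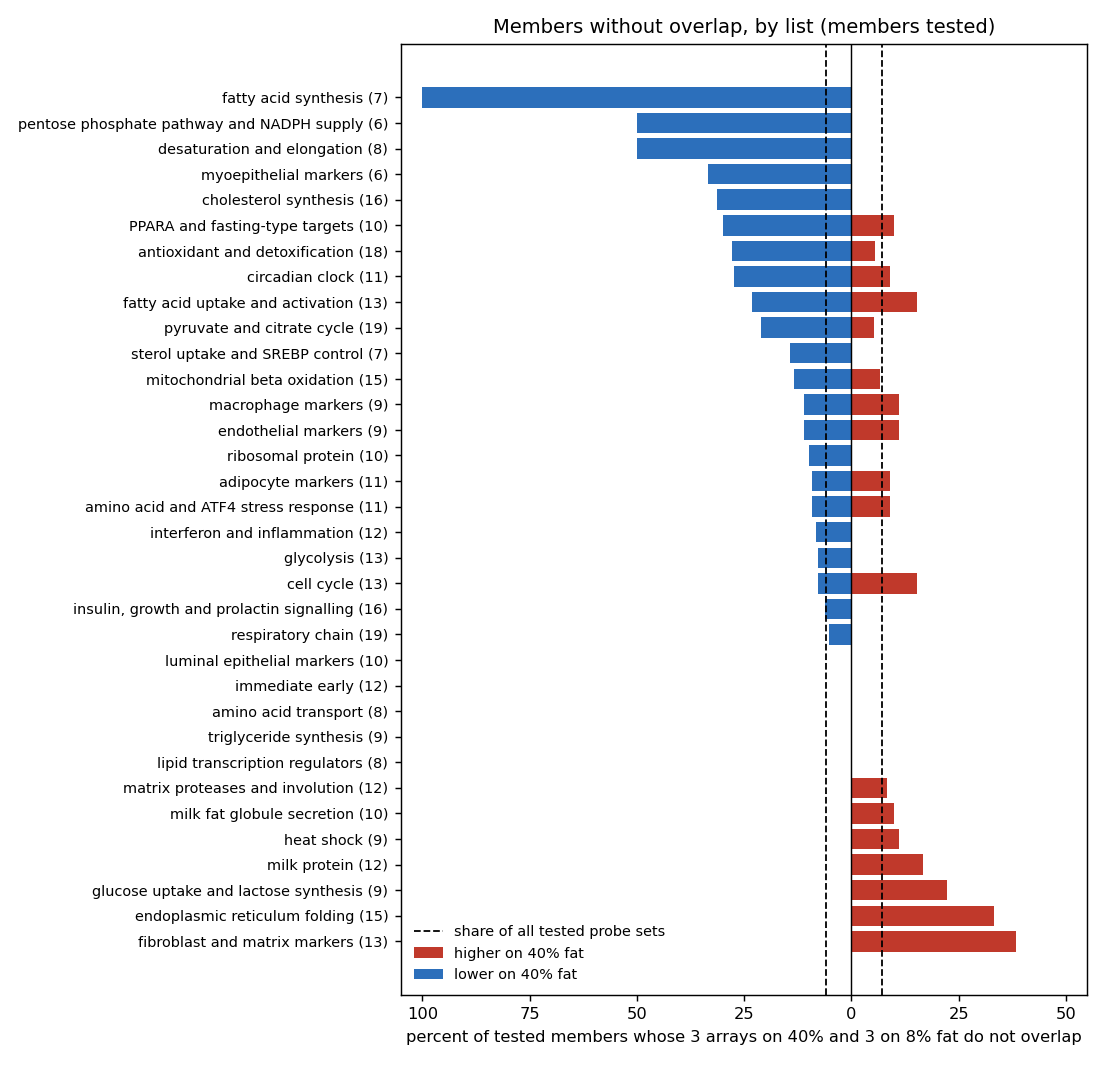
Share of the tested genes of each drawn list, in percent, that lay higher or lower on 40% fat without overlap. Without overlap, the 3 arrays of 40% fat lay all above or all below the 3 of 8% fat. Only lists with at least 6 tested genes are drawn. Bars run left for lower and right for higher genes, the number of tested genes stands in brackets, and dashed lines mark the shares over all tested probe sets, 7.14% higher and 5.98% lower. Fatty acid synthesis stands at the far lower end, and fibroblast and matrix markers and endoplasmic reticulum folding on the higher side.

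Genes that handle fatty acids reaching the gland ready-made lay on both sides. Lpl, the lipase that frees fatty acids from circulating triglyceride, averaged 12.55 ± 0.08 on 40% fat and 12.76 ± 0.09 on 8% fat, apart by -0.21 but not called (SD, n = 3 each; limma adjusted p = 0.615). In fatty acid uptake and activation 2 of 13 tested genes were higher and 3 lower without overlap, beside 7.14% and 5.98% of all tested probe sets. Slc27a3, of the fatty acid transport protein family, averaged 7.39 ± 0.15 on 40% fat and 6.73 ± 0.28 on 8% fat, while Acsl5, an acyl-CoA synthetase, averaged 7.11 ± 0.25 on 40% fat and 7.59 ± 0.07 on 8% fat (SD, n = 3 each; limma adjusted p = 0.190 for Slc27a3 and 0.472 for Acsl5). In mitochondrial beta oxidation, 1 of 15 was higher and 2 lower, with a median of -0.02. Triglyceride synthesis had 9 tested genes and none without overlap. Of 10 milk fat globule secretion genes, Xdh, the xanthine oxidoreductase of the globule membrane, was the one that lay apart, at 11.16 ± 0.21 on 40% fat and 10.76 ± 0.15 on 8% fat (SD, n = 3 each; limma adjusted p = 0.472).

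Milk protein RNA overlapped between the diets for most genes. Of 12 tested genes 2 were higher and none lower without overlap, beside 7.14% and 5.98% of all tested probe sets. There were 6 means on either side, with a median of -0.006. The summed intensity was 274700 to 285100 on 40% fat and 268900 to 275500 on 8% fat. Wap, the whey acidic protein, averaged 15.69 ± 0.06 on 40% fat and 15.74 ± 0.02 on 8% fat, and Csn2, beta casein, 14.28 ± 0.17 on 40% fat and 14.25 ± 0.01 on 8% fat (SD, n = 3 each). Both overlapped between the diets. Wap held the top intensity of each array, 50532 to 54703 on 40% fat and 54276 to 55348 on 8% fat. Whether signals this bright could still show a change was not tested. Lalba, alpha-lactalbumin, the subunit that lets galactosyltransferase make lactose, read 14.61, 14.61 and 14.83 on 40% fat, against 14.36, 14.31 and 14.07 on 8% fat. Its arrays were apart, and the difference of 0.44 (95% interval 0.16 to 0.71) did not pass (limma adjusted p = 0.313). B4galt1, the galactosyltransferase itself, averaged 9.94 ± 0.27 on 40% fat and 10.29 ± 0.14 on 8% fat with overlapping arrays.

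Markers of the cell types in the gland were read beside the lipid genes. Over all tested probe sets 7.14% were higher and 5.98% lower without overlap. The 10 tested luminal epithelial markers held none without overlap, with a median of -0.12, and their summed intensity was 7853 to 9650 on 40% fat and 9111 to 9609 on 8% fat. The 11 tested adipocyte markers had 1 higher and 1 lower without overlap, with a summed intensity of 3820 to 4012 on 40% fat and 3738 to 5014 on 8% fat, which overlaps. All 6 tested myoepithelial markers had a lower mean on 40% fat, 2 of them without overlap, and the sum was 1804 to 2358 on 40% fat and 2400 to 2666 on 8% fat. The basal keratins Krt5 and Krt14 lay under the filter line. Acta2, smooth muscle actin, averaged 9.75 ± 0.52 on 40% fat and 10.22 ± 0.03 on 8% fat (SD, n = 3 each; limma adjusted p = 0.604), with array 3 on 40% fat lowest at 9.15. Of 11 hepatocyte markers 9 lay under the filter line, Alb among them. The part of these cells in the lipid differences was not tested.

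On the higher side, collagen and matrix genes lay apart most often. Of 13 tested fibroblast and matrix markers 5 were higher and none lower without overlap, beside 7.14% and 5.98% of all tested probe sets. None of these markers was called, while 7 of their means were higher and 6 lower on 40% fat, with a median of 0.17. Their summed intensity was 3034 to 3348 on 40% fat and 2185 to 2635 on 8% fat. Col3a1, a fibrillar collagen of soft tissue, read 8.73, 8.84 and 9.04 on 40% fat, against 8.33, 8.22 and 7.97 on 8% fat. The gap of 0.69 came with an adjusted p of 0.134 in limma, and its 2 dimmer probe sets, with differences of 0.38 and 0.84, overlapped between the diets. Sparc, a collagen-binding matrix protein, read 9.55, 9.60 and 10.13 on 40% fat, against 9.06, 8.86 and 8.73 on 8% fat, a difference of 0.88 (limma adjusted p = 0.169). Col1a1, a chain of type I collagen, read 8.55, 8.45 and 8.16 on 40% fat, against 8.09, 7.14 and 7.04 on 8% fat, where array 1 on 8% fat came close to the other diet. It did not pass (limma adjusted p = 0.229). With single arrays left out it passed only without that array, whose removal widens the gap (limma adjusted p = 0.0183). Without array 2 or array 3 on 8% fat the limma adjusted p was 0.507 or 0.400. Dcn, decorin, another product of fibroblasts, averaged 9.69 ± 0.15 on 40% fat and 9.78 ± 0.01 on 8% fat, with overlap. Leaving out array 3 on 40% fat cannot lower the count of 5 and did not raise it. Of all probe sets 14.8% were higher without overlap at that setting.

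Protein folding in the endoplasmic reticulum was the other list with several separated members on the higher side. Of 15 tested genes 5 were higher and none lower without overlap, beside 7.14% and 5.98% of all tested probe sets. The list had a median of 0.08 and none of its genes was called. Pdia6, a protein disulfide isomerase, read 8.62, 8.84 and 8.39 on 40% fat, against 7.88, 8.17 and 7.89 on 8% fat. The arrays were apart and the difference was 0.64 (limma adjusted p = 0.190). Hspa5, the chaperone BiP, read 10.97, 11.27 and 11.36 on 40% fat, against 10.77, 10.90 and 10.66 on 8% fat, a difference of 0.43 (limma adjusted p = 0.597). Xbp1, the transcription factor of this response, averaged 11.61 ± 0.08 on 40% fat and 11.70 ± 0.11 on 8% fat, with overlap. With the ribosomal protein genes set equal between arrays, 2 of the 15 in place of 5 lay higher without overlap, beside 8.61% of all probe sets.

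**Figure D4:**
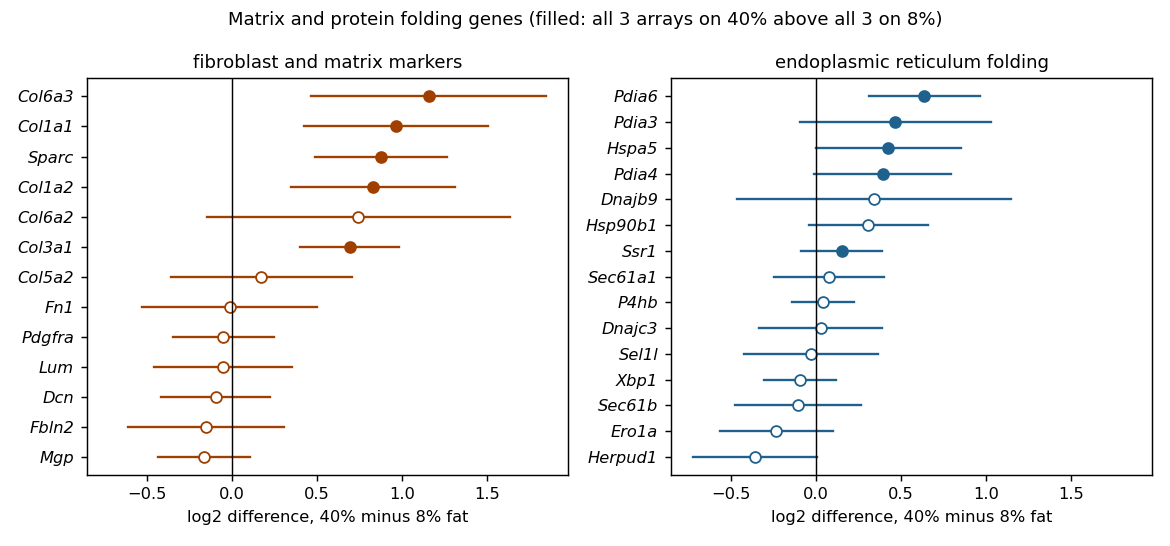
Log2 difference, 40% minus 8% fat, with its 95% interval, for the tested fibroblast and matrix markers and endoplasmic reticulum folding genes. Filled points are genes whose 3 arrays on 40% fat all lie above the 3 on 8% fat. In each list 5 genes lie apart on the higher side, with Col6a3, Col1a1 and Pdia6 among them, and no gene of either list was called.

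The genes with the smallest p among those that lay apart and missed the threshold follow, whatever the size of their difference; those described above are not repeated. On the higher side, Agt, angiotensinogen, read 6.97, 6.63 and 7.22 on 40% fat, against 6.10, 5.91 and 5.99 on 8% fat. Twf2, an actin-binding twinfilin, averaged 6.27 ± 0.13 on 40% fat and 5.51 ± 0.08 on 8% fat (SD, n = 3 each; limma adjusted p = 0.0690 for Agt and for Twf2). Crhr1, a receptor of corticotropin-releasing hormone, read 6.15, 5.93 and 5.75 on 40% fat, against 4.45, 2.99 and 4.04 on 8% fat. The groups were far apart, but 2 of the 3 arrays on 8% fat lay under the filter line of 4.22, so its log2 difference of 2.11 (limma adjusted p = 0.0815) rests on values near background. D930048N14Rik, Serpinb5, Eprs and Blcap completed the genes higher in this order, with differences of 0.57 to 0.71. D930048N14Rik was tested through its 40% mean alone. Its means of 3.98 on 16% fat and 4.06 on 8% fat lay under the filter line, so its difference rests on values near background. Serpinb5 encodes maspin, a serpin of mammary epithelium, and Eprs the glutamyl-prolyl-tRNA synthetase.

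On the lower side, Gdap10 averaged 5.62 ± 0.35 on 40% fat and 6.98 ± 0.33 on 8% fat (SD, n = 3 each; limma adjusted p = 0.0690). Usp2, a deubiquitinase that cycles with the circadian clock, averaged 6.35 ± 0.28 on 40% fat and 7.10 ± 0.15 on 8% fat. Txnip, the thioredoxin-interacting protein known to respond to glucose, read 9.21, 9.18 and 9.28 on 40% fat, against 11.06, 10.18 and 11.74 on 8% fat. The 3 arrays on 40% fat agreed closely while those on 8% fat scattered, and the difference of -1.77 did not pass (limma adjusted p = 0.190). Glands on 16% fat read 9.28, 10.52 and 9.24 for Txnip, with 2 arrays at the level of 40% fat. Pdzk1ip1, Fahd1 and Sfn had differences of -0.75, -0.45 and -0.78. Another probe set of Fahd1 gave -0.12 with overlap, and Sfn, stratifin, lay under the filter line on all 3 arrays of 40% fat.

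A scatter like that of Txnip on 8% fat recurred in Ddit4, an inhibitor of mTORC1 that stress and glucocorticoids induce. It read 6.93, 7.15 and 6.45 on 40% fat, against 9.73, 7.81 and 8.77 on 8% fat. The diets were apart by -1.93 (limma adjusted p = 0.213). Mt2, a metallothionein that binds zinc, read 6.08, 6.31 and 5.52 on 40% fat, against 6.92, 7.36 and 6.73 on 8% fat, apart by -1.03 (limma adjusted p = 0.229). Its relative Mt1 overlapped, at 10.43 ± 0.57 on 40% fat and 10.92 ± 0.51 on 8% fat (SD, n = 3 each).

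The circadian clock list had 3 of 11 tested genes lower and 1 higher without overlap, beside 5.98% and 7.14% of all tested probe sets. Its median was -0.28. Dbp, a clock output factor with a strong daily rhythm, read 6.46, 7.19 and 4.59 on 40% fat, against 7.46, 7.19 and 7.98 on 8% fat. Its arrays overlapped and array 3 on 40% fat stood lowest by a wide margin. Tef, of the same family, averaged 7.16 ± 0.38 on 40% fat and 7.65 ± 0.11 on 8% fat, again with array 3 on 40% fat lowest at 6.80. No source used here gives the hour of tissue collection. Diet and collection time therefore cannot be told apart for these genes or for any other gene named here. In the amino acid and ATF4 stress list Atf4 itself was higher without overlap, at 9.99 ± 0.07 on 40% fat and 9.60 ± 0.02 on 8% fat (SD, n = 3 each; limma adjusted p = 0.344), while 10 of its 11 members, Atf4 excepted, had a lower mean.

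**Figure D5:**
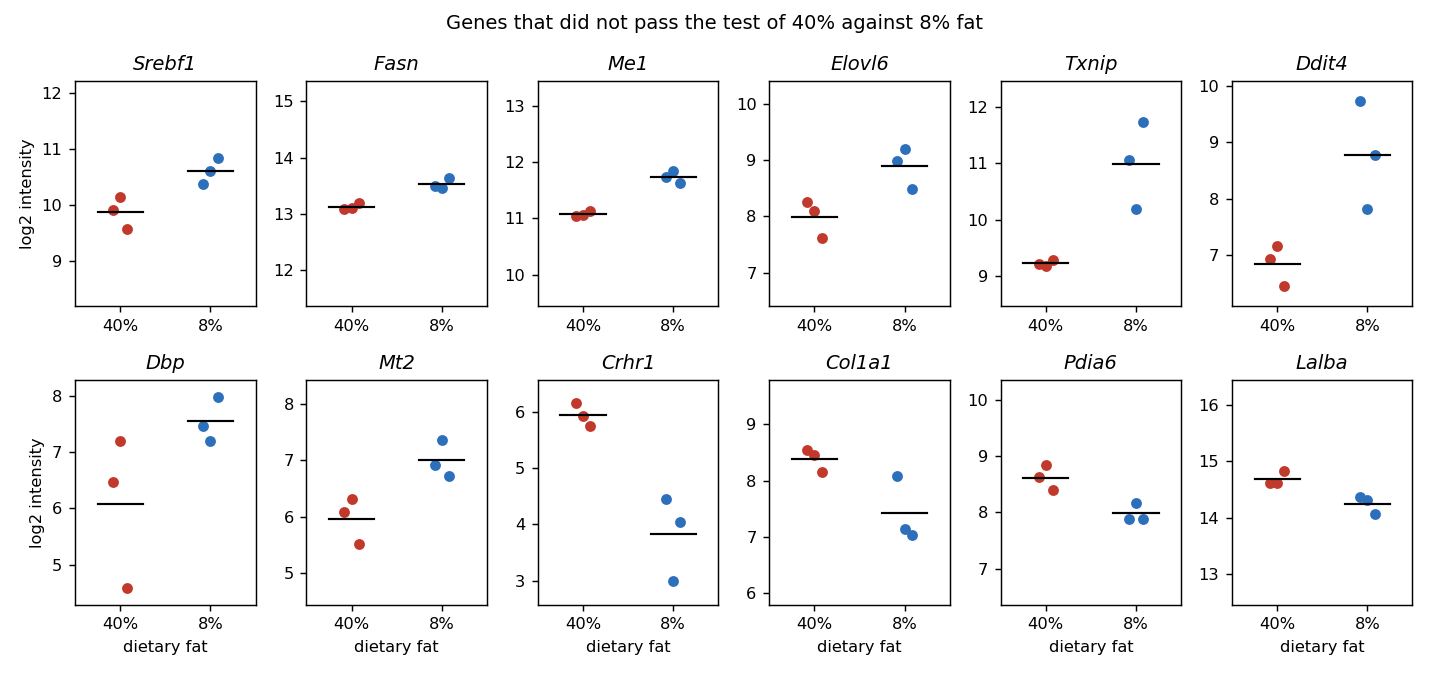
Log2 intensity of each array on 40% fat and on 8% fat for 12 genes named in the text that did not pass the test. Points are arrays and bars are group means. Txnip and Ddit4 scatter on 8% fat and cluster on 40% fat, while Dbp scatters on 40% fat.

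The remaining lists are given by count, to be set beside 7.14% higher and 5.98% lower without overlap over all tested probe sets. In the antioxidant and detoxification list, 5 of 18 were lower and 1 higher without overlap. In the PPARA and fasting-type target list, to which Txnip belongs, 3 of 10 were lower and 1 higher, with a median of -0.07. In the glucose uptake and lactose list, which holds Lalba, 2 of 9 were higher and none lower. In the ribosomal protein list 1 of 10 was lower and none higher, with a median of -0.01, and in the respiratory chain 1 of 19 was lower. In the cell cycle list 2 of 13 were higher and 1 lower. In the immediate early list, which reacts to handling of tissue, none of 12 lay apart. Macrophage markers had 1 of 9 higher and 1 lower, with a summed intensity of 1580 to 2020 on 40% fat and 1547 to 1705 on 8% fat. Interferon and inflammation had 1 of 12 lower.

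The 16% diet lay nearer to 8% than to 40% fat for most of the lipid genes. Its mean was nearer to the 8% mean in 6 of 7 tested fatty acid synthesis genes and 14 of 16 cholesterol synthesis genes, and in 4 of 8 desaturation and elongation genes. These counts include members that overlap between 40% and 8% fat. They also include means that lie beyond 8% fat and not between the diets, as for Thrsp and Acss1. The share over all tested probe sets was not counted. Other lists varied, with 16 of 18 antioxidant and detoxification genes, 15 of 19 respiratory chain genes, 5 of 12 milk protein genes and 1 of 9 glucose uptake and lactose genes. Of all 388 probe sets lower on 40% fat without overlap, 238 had their 16% mean nearer to 8% fat, and of the 463 higher, 206 did. The 16% mean lay between the 40% and 8% means in 206 of the 388 lower and 258 of the 463 higher. The means of 8% fat entered both the choice of these probe sets and the distance, so the counts are a description.

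Most of the lipid genes also rose at the start of lactation. Between lactation day 2 and pregnancy day 17, in FVB dams on chow with 4 arrays per stage that share no array with the diets, 1830 of 7189 tested probe sets rose (25.5%) and 1759 fell (24.5%) at lactation day 2 in limma with Benjamini-Hochberg adjustment. Of the 38 lipid genes tested in both fits, 28 rose at lactation day 2. Slc25a1 rose by 2.65 (adjusted p = 2.57e-07), Elovl5 by 2.67 (adjusted p = 4.32e-10), Fdps by 2.28 (adjusted p = 3.76e-06) and Srebf1 by 1.21 (adjusted p = 3.09e-05) on the log2 scale. Scd1, the gene with the smallest p between the diets, rose by 0.77 (adjusted p = 0.00490). Of these 28 genes, 24 had a lower mean on 40% fat, 16 of them without overlap, and none was higher without overlap.

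Over all genes that rose at lactation day 2 the share was near that of all probe sets. Of 1621 probe sets higher at lactation day 2 that both fits tested, 90 (5.55%) were lower on 40% fat without overlap, beside 6% of all 6429 probe sets tested in both. Set against the 386 probe sets lower on 40% fat, these 90 made up 23.3%. Of 1569 probe sets lower at lactation day 2, 119 (7.58%) were lower on 40% fat, and of 3239 not called between stages, 177 (5.46%).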

How the data were processed

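The members of the comparison and all gene lists were chosen with earlier results of these data known. The authors deposited probe set intensity on a linear scale, summarised with GCRMA per the submitters' processing notes; no source used here gives its version or settings. About 5 micrograms of total RNA from individually lysed tissue was made into biotinylated cRNA, per the labels. Values were raised to a floor of 1, which 56 values of the 9 diet arrays lay below, and taken to log2. Of 12488 probe sets 66 controls were left out. A gene was named through the array's annotation table, with 10833 probe sets naming a single gene, 396 several and 1193 none; 10817 matched the RefSeq table. The brightest probe set over all 32 arrays stood for a gene. Probe sets whose highest group mean reached the median of all values, 18.6 in intensity, were tested with limma 3.58.1 in R 4.3.3, with 3 diet groups and no covariate, Benjamini-Hochberg adjusted over all 6483, and called at an adjusted p under 0.05. The stage comparison used the same procedure on the 20 chow arrays. The procedure was tested on simulated data.

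Named genes are 12 higher and 12 lower genes without overlap, first those called and then in order of p whatever their size, up to 4 called and 2 uncalled members of each list by level, the members of 4 lipid lists and fixed genes such as Lpl, Wap and Lalba. The 41 lists hold 614 genes, 106 without a probe set of a single gene. Alternatives covered the filter, log scale, normalization, arrays in the fit, variance moderation, replicate block and single arrays left out. Same-numbered arrays of 40% and 8% fat correlated at -0.18 to 0.06 in their deviations from group means, so the numbers were not taken to pair samples. Promoter sequences are RefSeq's on GRCm38.p6.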

Additional observations from a re-analysis of the deposited data

How the results depend on the processing

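The number of probe sets called between 40% and 8% fat was 6. It was 10 with ribosomal protein medians set equal, 18 with all 29 mammary arrays in the fit, 1 with only the compared groups, 1 with the replicate block, and 1 to 4 with single arrays left out. No filter, the 75th percentile filter, log2 of value plus 16, quantile normalization and trended variance gave 4 to 9. Scd1 passed under all of these. Slc25a1, Slc4a2, Col9a1 and AU020206 kept their direction under all of them, except that Slc4a2 was too dim for the 75th percentile filter, but missed the threshold with the replicate block and with the compared groups alone (adjusted p = 0.0860 with the block for Slc4a2 and Col9a1, 0.0762 for Slc25a1). Slc25a1 also missed it with all 29 arrays (adjusted p = 0.388), Slc4a2 and Col9a1 after quantile normalization (0.0510 and 0.0741), and AU020206 with no filter (0.0580). The stage comparison called 3589, against 7676 with no filter, 2107 at the 75th percentile, 5559 with ribosomal medians set equal and 3113 to 3710 with single arrays left out. Wap was the brightest probe set of each diet array, and quantile normalization gives such a probe set the same value on all arrays. Its difference was therefore 0 at that setting, and it was 0.009 with ribosomal medians set equal. The difference of Csn2 ran between -0.074 and 0.083 with single arrays left out. So did those of Adipoq (-0.135 to 0.725), Cyp2e1 (-0.308 to 0.505), Ighm (-0.808 to 0.394) and Jchain (-0.642 to 0.522), each on both sides of 0. The other 62 named genes kept the sign of their difference. Of those that missed the threshold, 9 passed under at least 1 of these settings. Among them were Crhr1 with all 29 arrays (limma adjusted p = 8.40e-06) and Agt at the 75th percentile filter (limma adjusted p = 0.0384). Among the diets Crhr1 reached the filter line only through its 40% mean, so its difference rests on values near background. The replicate numbers were not taken to pair the samples, though the correlations of 3 same-numbered pairs cannot exclude a pairing or a shared batch. The causes of these shifts were not tested.

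Limits that apply throughout are the 3 arrays per diet, labels that conflict over the diet, a linear table whose joint normalization is not stated, genes such as Acaca that could not be read, and whole tissue. Values near the filter line do not stand above background.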

Other observations

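Some genes varied more within a diet than between diets. Ighm, the heavy chain of IgM, read 10.25, 11.45 and 12.65 on 40% fat, against 11.26, 12.51 and 11.20 on 8% fat, and Jchain, the joining chain of secreted antibodies, read 7.47, 8.96 and 9.80 on 40% fat, against 8.35, 9.82 and 8.41 on 8% fat. The same arrays were lowest and highest for both genes on 40% fat, and array 2 was highest for both on 8% fat. On 16% fat these genes averaged 10.48 ± 0.35 and 7.56 ± 0.24 (SD, n = 3 each).

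Array 3 on 8% fat stood low for 2 genes picked after their values were seen; it was not lowest of its diet for every adipocyte marker. Adipoq, the adipocyte hormone adiponectin, read 9.58, 9.53 and 9.99 on 40% fat, against 10.00, 9.67 and 8.28 on 8% fat. Cyp2e1 read 9.98, 9.63 and 9.83 on 40% fat, against 10.17, 10.07 and 8.54 on 8% fat. The 7 tested fatty acid synthesis genes lay apart with array 3 on 8% fat included, so leaving it out could not lower that count. The share of all probe sets lower without overlap was 11.2% without it.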
